A study of Mus musculus with 6 samples.

Results

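The genes described here were 9 genes of heat production and brown fat: the uncoupling proteins Ucp1, Ucp2 and Ucp3, the deiodinase Dio2, the coactivators Ppargc1a and Ppargc1b, the brown fat lipid genes Cidea and Elovl3, and the identity regulator Prdm16. Every array probe set annotated to exactly 1 of these symbols was taken. This gave 14 probe sets of 7 genes, out of 12393 genes with a probe set of their own, and Ucp2 and Prdm16 matched no probe set in the annotation used here and were not analysed. The samples were epididymal white adipose tissue (WAT), the fat pad beside the epididymis, from male C57BL/6 mice, 9 to 11 weeks old and without an engineered mutation. In 3 control samples the mice were left undisturbed, and in 3 samples they had undergone timed sleep restriction (TSR), in which gentle handling kept them awake for 6 h per day, from the start of the light phase, on 5 consecutive days. Both groups were collected at ZT18, which is 18 h after lights on and in the dark phase, on the last day of TSR for the restricted mice. Each sample was hybridised to 1 Affymetrix mouse array. Nothing in the sources says whether an array held 1 animal or a pool, and the p-values thus reflect only how far these 3 samples per group scattered, which may be technical.

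Brown adipocytes turn fuel into heat because UCP1 lets protons return across the inner mitochondrial membrane without making ATP. Cold acts through noradrenaline and cyclic AMP, which induce Ucp1, Ppargc1a and Dio2 in these cells, and beige adipocytes can switch on the same programme inside white fat. Most white adipocytes, in contrast, store lipid and carry little UCP1.

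The values are MAS5 signals, a linear measure of how brightly the probes of a set light up after background removal, scaled by the authors so that all arrays share a common target. The difference between both groups was tested by limma on the log2 scale over 14707 probe sets, with Benjamini-Hochberg adjusted p-values and without the dimmest 35% (a geometric mean signal under 43.8). Values given with ± are mean ± SD of 3 arrays, folds are ratios of these means, and log2 changes are TSR minus control with their standard error. Of all probe sets tested, 25.6% passed as higher and 21.0% as lower after TSR, 46.6% in either direction, so that a call alone was common on these arrays. Under median centring the split turned to 2452 higher and 4363 lower, from 3768 and 3082. Median signals of the arrays lay between 126 and 141 (25th percentile between 20.8 and 25.2), and arrays of the same group resembled each other (r of 0.991 to 0.993 over log2 signals of tested probe sets) more than arrays of different groups did (0.962 to 0.965). Signals of different probe sets cannot be set against each other, and in a piece of tissue fewer cells of a type and less RNA per cell cannot be told apart.

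The bases upstream of 4 of the measured genes are shown. These are Ucp3, Dio2 and Ppargc1a, which were up regulated, and Ucp1, the gene that defines brown fat, which was near background. Windows of Ppargc1b, Cidea and Elovl3 were not used here, so the motifs cannot be set against those members. Each window holds the 250 bases before the gene's start in RefSeq's mouse assembly GRCm38.p6, read 5′ to 3′ on the gene's own strand. Capitals mark TGACGTCA, the full element to which cyclic AMP response factors bind, its core TGACG (which reads CGTCA on the opposite strand), and AGGTCA, the core hexamer of nuclear receptor elements.
Ucp1, chr8:83290098-83290347, plus strand: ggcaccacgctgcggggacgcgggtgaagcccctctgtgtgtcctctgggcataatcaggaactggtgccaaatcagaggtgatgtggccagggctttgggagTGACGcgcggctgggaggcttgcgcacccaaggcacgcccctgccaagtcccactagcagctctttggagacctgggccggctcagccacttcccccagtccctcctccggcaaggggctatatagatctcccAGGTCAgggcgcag
Ucp3, chr7:100472741-100472990, plus strand: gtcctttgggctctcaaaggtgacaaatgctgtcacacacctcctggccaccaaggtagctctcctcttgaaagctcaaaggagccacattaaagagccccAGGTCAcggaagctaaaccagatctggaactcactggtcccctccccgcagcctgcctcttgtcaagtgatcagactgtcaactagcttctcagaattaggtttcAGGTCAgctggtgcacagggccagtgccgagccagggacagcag
Dio2, chr12:90739039-90739288, minus strand: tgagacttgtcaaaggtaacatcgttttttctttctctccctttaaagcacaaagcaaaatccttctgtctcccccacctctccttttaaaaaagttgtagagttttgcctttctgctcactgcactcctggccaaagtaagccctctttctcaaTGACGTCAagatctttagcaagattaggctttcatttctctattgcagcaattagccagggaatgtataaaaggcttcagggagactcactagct
Ppargc1a, chr5:51567726-51567975, minus strand: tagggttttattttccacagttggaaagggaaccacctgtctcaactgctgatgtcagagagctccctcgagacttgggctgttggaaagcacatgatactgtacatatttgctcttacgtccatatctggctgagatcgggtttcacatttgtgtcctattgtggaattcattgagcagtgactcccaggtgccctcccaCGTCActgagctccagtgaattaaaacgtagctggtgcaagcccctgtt
The Dio2 window held TGACGTCA starting 95 bases before the start. Among 32851 mouse promoter windows of 300 bases (250 before to 50 after the start), 1.79% held this 8-letter motif on either strand. The core TGACG, which the full element contains, was found in 20.8% of windows. The Ppargc1a window held it on the opposite strand, 49 bases before the start, and the Ucp1 window held it 147 bases before the start. The 300-base window of Ucp3 held it too, on the opposite strand past the start and so outside the bases printed. AGGTCA, found in 16.3% of windows, stood 14 bases before the start of Ucp1 and at 149 and 44 bases before that of Ucp3. CACGTG, the E-box of clock factors, was found in 7.15% of all windows and in none of these 4. These are matches of letters within short windows, and binding was not measured.

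Ucp1 itself was near background in both groups. Its only probe set, 1418197_at, read 2.46, 2.38 and 1 in the control samples and 1.85, 2.95 and 1.48 after TSR. Each of the 6 was under its array's 25th percentile, the groups overlapped (exact permutation test, two-sided, p = 0.8), and the probe set was too dim for the comparison across probe sets. As a gauge of how bright a silent gene can read, 28 genes of other organs were taken, such as eye, brain and pituitary genes, measured by 41 probe sets. On the 6 arrays the median of these probe sets lay between 5.6 and 10.7 and their 90th percentile between 24.1 and 37.1. The highest signal among them lay between 167 and 211. Only 1 of the 41 had a mean below that of Ucp1 in the control group, and 3 had one after TSR. Thus the defining transcript of brown fat was not detectable above background in either group, and a change in it was not measurable here.

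Ucp3, a mitochondrial carrier related to UCP1 that is known mostly from skeletal muscle and brown fat, was up regulated. Probe set 1420657_at gave 316, 271 and 256 in the control samples and 631, 672 and 665 after TSR. The lowest TSR signal was thus far above the highest control signal, a 2.33-fold difference in means (281 ± 31.3 against 656 ± 22.2, log2 change 1.23, SE 0.084, limma adjusted p = 8.52e-06). A dimmer probe set, 1420658_at, read 45.9, 51.1 and 45.0 in control WAT and 149.9, 138 and 123 after TSR. It rose 2.89-fold (log2 change 1.53, SE 0.143, adjusted p = 5.15e-05), again without overlap. The probe sets were designed from one sequence record and are not independent of each other. Their changes differed by 0.30 on the log2 scale, which did not pass (exact permutation test, two-sided, p = 0.2).

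Dio2 encodes the deiodinase that converts thyroxine into active triiodothyronine inside the cell, and its 3 probe sets gave different answers. Probe set 1418937_at read 29.7, 25.4 and 26.5 in the control samples and 159, 128 and 139 after TSR, a 5.22-fold rise in the means (27.2 ± 2.25 to 142 ± 15.7). Its log2 change of 2.38 (SE 0.163, adjusted p = 8.46e-06) was the largest among the thermogenic probe sets tested. The control signals were below the filter and below the 35th percentile of every array, and the probe set was tested only because of its TSR signals. Against these percentiles the rise was at least 3.23-fold. In the control group, 36 of the 41 gauge probe sets had a lower mean, and after TSR 40 had.

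The other Dio2 probe sets were below the filter. Probe set 1418938_at, from the same sequence record, read 41.2, 23.3 and 28.4 in control WAT and 46.1, 26.1 and 39.0 after TSR. These groups overlapped (31.0 ± 9.21 against 37.1 ± 10.1, exact p = 0.5). Probe set 1426081_a_at, from another record, read 16.3, 26.4 and 8.04 in control WAT and 43.1, 36.8 and 31.2 after TSR. Here the groups did not overlap and the means differed 2.19-fold, but with no filter limma gave an adjusted p of 0.0835. Relative to 1418937_at, the log2 changes were smaller by 2.12 for 1418938_at and by 1.10 for 1426081_a_at, each with an exact p of 0.1, the smallest that 3 against 3 arrays allow, and with 0.175 after adjustment over the 7 pairs of probe sets compared. The call for Dio2 therefore rests on 1 of its 3 probe sets.

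Ppargc1a, which encodes PGC-1α, the coactivator that drives mitochondrial biogenesis and the brown fat programme, was up regulated in 4 of its 5 probe sets. The brightest, 1460336_at, gave 153, 178 and 172 in control WAT and 350.1, 338 and 344 after TSR. The TSR samples lay close together at about 2.05 times the control mean (log2 change 1.04, SE 0.085, adjusted p = 2.45e-05). Probe set 1437751_at read 108, 112 and 111 in control WAT and 197, 181 and 211 after TSR, a 1.78-fold rise (log2 change 0.83, SE 0.102, adjusted p = 0.000249). The control signals of this probe set were within a few units of each other, and no TSR sample came near them.

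A pair of Ppargc1a probe sets from one sequence record rose less. Probe set 1434099_at read 146, 117 and 139.7 in control WAT and 193, 179 and 236 after TSR, 1.51-fold higher in the mean (adjusted p = 0.00685), and this call was lost with the methods' t-test (adjusted p = 0.062 on linear and 0.052 on log2 signals). Its partner 1434100_x_at read 131, 108 and 146 against 221, 180.0 and 194, 1.55-fold higher (adjusted p = 0.00503). Neither probe set showed overlap between the groups. The remaining probe set, 1456395_at, gave 242, 189.6 and 231 in control WAT and 249.5, 216 and 265 after TSR. These groups overlapped, and the log2 change of 0.14 (SE 0.118) did not pass (adjusted p = 0.348). Its change was smaller by 0.90 than that of 1460336_at, with the smallest exact p of 0.1 and 0.175 after adjustment. The changes of the other 3 probe sets were smaller than that of 1460336_at by 0.45, 0.40 and 0.21, with exact p between 0.1 and 0.2.

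Ppargc1b, the closest relative of Ppargc1a, which also promotes mitochondrial respiration, moved little. Its probe set 1449945_at gave 672, 814 and 752 in control WAT and 838, 879 and 865 after TSR. The TSR signals were all above the control signals, but by a small margin, and the means differed 1.15-fold (746 ± 71.3 against 860.4 ± 20.8, log2 change 0.21, SE 0.071, adjusted p = 0.0376). This call was lost in most alternatives, with an adjusted p of 0.324 and a log2 change of 0.10 under median centring, 0.0995 under quantile normalization and 0.114 without control replicate 1. To compare both coactivators within each array, the log2 signal of Ppargc1b was subtracted from that of Ppargc1a (1460336_at). The difference was -2.13, -2.19 and -2.13 in the control samples and -1.26, -1.38 and -1.33 after TSR. Ppargc1a thus gained 0.83 log2 units over Ppargc1b, without overlap (exact permutation test, two-sided, p = 0.1, the smallest possible). With the mean of the 5 Ppargc1a probe sets the gain was 0.44.

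Cidea and Elovl3 mark brown fat among adipose tissues, Cidea as a lipid droplet protein and Elovl3 as an enzyme that lengthens fatty acids. For Cidea, 1417956_at read 64.6, 52.1 and 71.7 in control WAT and 87.1, 86.7 and 73.7 after TSR. The lowest TSR sample was only just above the highest control sample, and the log2 change of 0.40 (SE 0.171) did not pass (adjusted p = 0.0829). For Elovl3, 1420722_at read 22.3, 26.9 and 21.8 in control WAT and 85.6, 88.2 and 83.9 after TSR. The means differed 3.63-fold (23.7 ± 2.77 to 85.9 ± 2.14, log2 change 1.86, SE 0.183, adjusted p = 6.78e-05). Elovl3 lay only 0.04 above the filter in mean log2 signal, and as for Dio2 its control signals alone were below it. They lay near the arrays' 25th percentiles and below their 35th, against which the rise was at least 1.96-fold. Among the 41 gauge probe sets, 34 had a lower mean than Elovl3 in the control group and 40 had one after TSR.

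**Figure D1:**
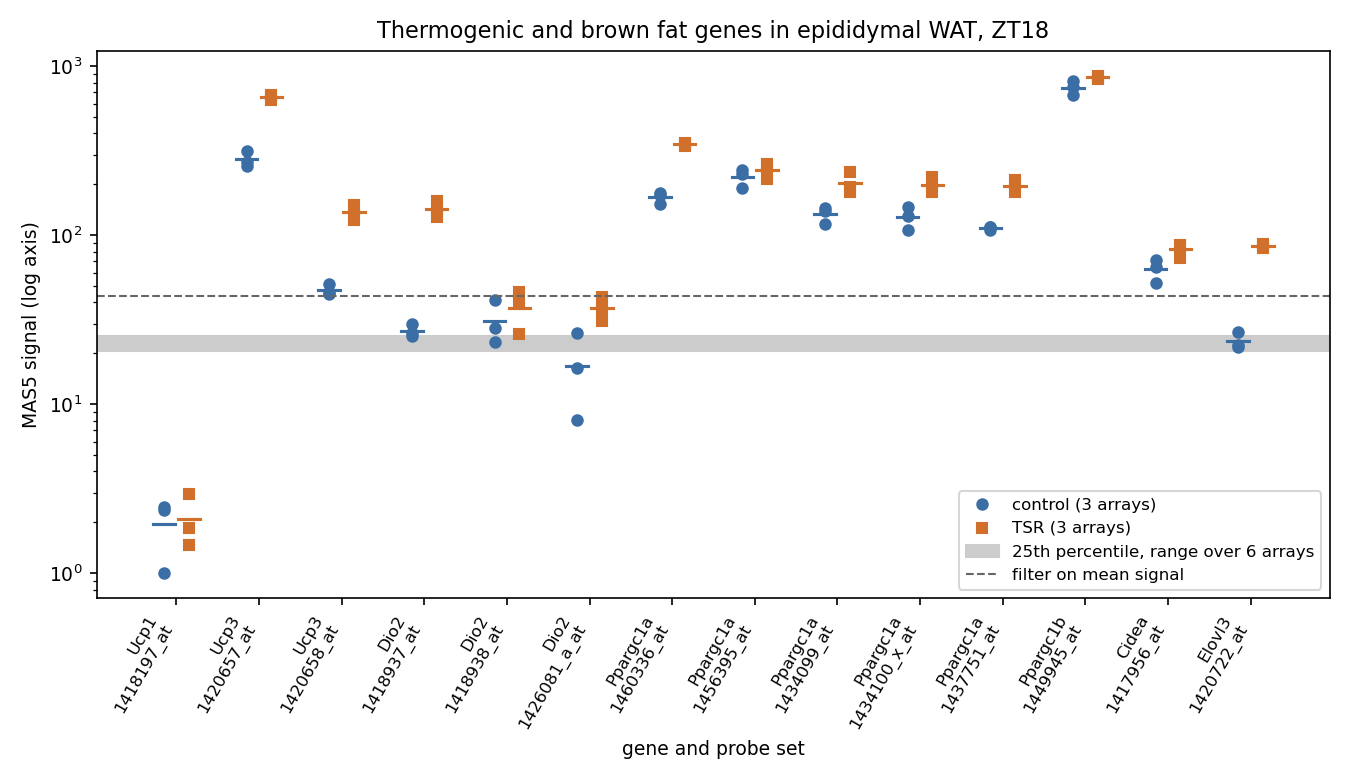
MAS5 signal (log axis) of the 14 thermogenic probe sets in each control (circle) and TSR sample (square), 3 per group, with lines at the group means, the range of the arrays' 25th percentiles in grey and the filter as a dashed line. Ucp1 lay below the grey band in both groups, whereas both Ucp3 probe sets, 1 of 3 Dio2 probe sets, 4 of 5 Ppargc1a probe sets and Elovl3 separated clearly.

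Across the 11 thermogenic probe sets tested, 9 passed as higher after TSR, 0 as lower, and 2 (Cidea and Ppargc1a 1456395_at) did not pass, beside 25.6% called higher among all probe sets. The 9 calls belonged to 5 genes, Ucp3, Dio2, Ppargc1a, Ppargc1b and Elovl3, and 4 of them came from Ppargc1a alone. Leaving aside Dio2 and Elovl3, which were tested only through their TSR signals, 7 of 9 were called higher. Rises of at least 2-fold were called in 5 of the 11 and falls of that size in 0, where 2.21% of all probe sets had such a rise and 1.21% such a fall. These 5 include Dio2 and Elovl3, as do the counts without overlap and the median below. Under quantile normalization and under median centring there were 4 such rises. In 10 of the 11, and in 11 of all 14, every TSR signal was above every control signal (31.4% of all tested probe sets, while 25.2% had every TSR signal below), and the other 3 overlapped. The median log2 change was 0.83, against 0.04 over all tested probe sets. At an unadjusted limma p under 0.05, 0 were lower either, and Cidea was then counted as higher. The calls for Ucp3, Dio2, Elovl3 and 3 of the Ppargc1a probe sets were kept in every alternative in which they were tested.

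**Figure D2:**
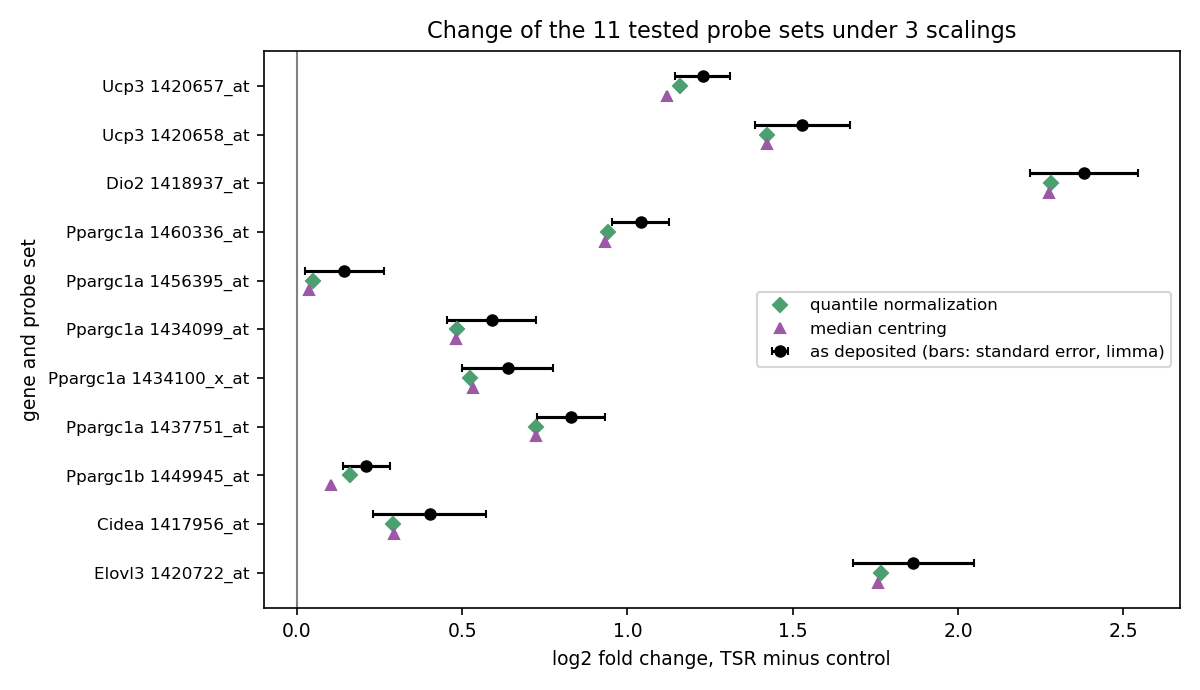
TSR minus control on the log2 scale (± SE) for the 11 tested thermogenic probe sets with signals as deposited, after quantile normalization and after median centring. As deposited the changes run from 2.38 for Dio2 down to 0.14 for Ppargc1a 1456395_at, and the Ppargc1b change of 0.21 was 0.10 under median centring.

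The expression patterns closest to these genes were found from the root mean square difference of log2 signals, each taken relative to the control mean, over the 6 arrays. For Ppargc1a 1460336_at they were Tefm, a mitochondrial transcription elongation factor (difference 0.041), the pyrophosphate transporter Ank (0.0488) and Hk2, the hexokinase of insulin-responsive tissues (0.0573). For Dio2 they were Acta1, the actin of skeletal muscle (0.168), the urate oxidase gene Uox (0.197) and Gadd45a, a growth arrest gene (0.21). For Elovl3 they were Thbs2, Cfi and Dmrt2 (0.0929, 0.126 and 0.138). Ucp3 1420657_at was closest to Itih4, Col5a3 and Rpia (0.0897, 0.0915 and 0.0935), and Ucp3 1420658_at to Ptges, Mid1ip1 and Nfil3 (0.104, 0.106 and 0.117). This measure mostly finds genes with a log2 change of similar size, 1.15 to 1.19 for Ucp3 1420657_at and 1.46 to 1.64 for 1420658_at. Different neighbours of the Ucp3 probe sets thus follow from their unlike changes, and shared regulation was not tested.

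Around these members, 7 lists of pathway genes were described, with each gene represented by its brightest probe set. They held 151 genes, of which 130 were measured and 96 tested. Of these, 31 passed as higher (32.3%) and 27 as lower (28.1%), beside 24.0% and 23.0% among all 8619 genes tested, where the median log2 change was 0.01. The wider pathway, like all genes tested, thus had calls in both directions, and under median centring it had 26 genes higher and 33 lower. The counts by list that follow are to be read beside these shares of all genes.

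Among the nearest relatives of the thermogenic genes (11 tested, 4 higher, 3 lower, median log2 change -0.04), the fatty acid elongase Elovl6 had the largest rise, from 403 ± 8.70 in control WAT to 1742 ± 24.1 after TSR (log2 change 2.11, adjusted p = 1.21e-08). The mitochondrial dicarboxylate carrier Slc25a10 rose by 0.86 (adjusted p = 2.96e-06) and Pprc1, the remaining member of the PGC-1 family, by 0.66 (adjusted p = 0.000411). Cidec, the relative of Cidea that enlarges lipid droplets in white fat, fell by 0.22 (10309 to 8842, adjusted p = 0.0148), but its change was 0.05 and did not pass after quantile normalization. Elovl5, another elongase, fell by 0.27 (3562 to 2945, adjusted p = 0.00066). It was also called lower under median centring and after quantile normalization. Elovl2 and the hepatic deiodinase Dio1 were near background in control WAT and below the filter. The Dio1 probe set read 1.11 ± 0.0931 in control WAT and 28.3 ± 5.39 after TSR, at least 1.26-fold higher, and that of Elovl2 was at least 1.38-fold higher.

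Of 27 other brown and beige adipocyte markers measured, 16 were tested, with 8 higher, 4 lower and a median log2 change of 0.32. The small heat shock protein gene Hspb7 had the largest rise, from 44.2 ± 2.11 to 737 ± 17.8 (16.7-fold, log2 change 4.06, adjusted p = 1.21e-08), and the potassium channel Kcnk3 rose by 1.45 (adjusted p = 4.82e-05). The respiratory chain subunit Cox8b rose by 0.41 (485 to 644, adjusted p = 0.000286), whereas the change of 0.23 in Cox7a1 did not pass (adjusted p = 0.202). Nrg4, a factor secreted by brown fat and the brightest of the list, had a change of 0.04 (adjusted p = 0.478). Bmp7, a signal for brown fat formation, fell by 1.69 (115 ± 27.1 to 42.9 ± 26.5, adjusted p = 0.0258), a call lost in 6 alternatives. Its TSR signals of 13.1, 63.8 and 51.9 had a mean below the filter, so it was tested only through its control signals. Epsti1 fell by 1.36 (294 ± 16.1 to 115 ± 4.16, adjusted p = 7.15e-06) and Ppara by 0.43 (adjusted p = 0.0425). Both were also called lower under median centring and after quantile normalization, but with no filter Ppara had an adjusted p of 0.0803. Ebf2, a selector of brown fat identity, fell from 702 to 536 in its brightest probe set (adjusted p = 0.00198), a call lost when its 3 probe sets were averaged (adjusted p = 0.418). Zic1 and Lhx8, which mark classical brown fat, were near background in both groups together with Bmp8b, Cited1 and Acot11, as Ucp1 was. Below the filter, Slc27a2, a fatty acid transporter, read 6.64 ± 5.30 in control WAT and 111 ± 23.4 after TSR, at least 4.93-fold higher.

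Of 18 tested genes that carry the adrenergic and cyclic AMP signal, 5 passed as higher, 1 as lower and 12 did not pass (median log2 change 0.03). The transcription factor Atf4 rose by 0.90 (adjusted p = 2.23e-06) and Prkaca, the catalytic subunit of protein kinase A, by 0.49 (adjusted p = 0.000204). Nr4a1, an early target of cyclic AMP, fell by 0.97 (253 to 129, adjusted p = 9.62e-05). Gnas, the stimulatory G protein and the brightest tested gene here, had a change of -0.07 that did not pass (adjusted p = 0.236), and it was called lower under median centring and higher after quantile normalization. Adrb1 and Adrb3, adrenergic receptors of adipocytes, matched no probe set in the annotation used here.

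Partners of PGC-1 and genes of mitochondrial biogenesis were called in both directions, with 6 of 24 higher and 9 lower (median -0.14). Esrra, the nuclear receptor through which PGC-1α induces mitochondrial genes, rose by 0.79 (413 ± 10.7 to 717 ± 104, adjusted p = 0.000214), and Rxra by 0.65 (adjusted p = 4.73e-05). Mef2c fell by 0.63 (adjusted p = 0.000137), as did Nrip1, a corepressor of Ucp1 and of oxidative genes, by 0.33 (adjusted p = 0.00026). Cycs, which encodes cytochrome c and is the brightest tested gene of the list, had a change of -0.16 that did not pass (adjusted p = 0.0773). Calls in both directions were also common among all genes tested, with 24.0% higher and 23.0% lower.

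Of 18 tested partners of PRDM16 and regulators of brown fat, 4 were higher and 9 lower (median -0.12). Zfp423, which restrains the thermogenic programme in white adipocytes, rose by 0.80 (adjusted p = 0.00186) and Cebpa, an adipocyte differentiation factor, by 0.40 (adjusted p = 0.00029). Cebpd fell by 0.93 (adjusted p = 1.04e-05) and Kdm3a, a histone demethylase that acts at Ucp1, by 0.64 (adjusted p = 9.54e-05). Among 6 tested genes of thyroid hormone action, the receptor Thra rose by 0.63 (adjusted p = 0.000147) and the partner receptors Rxra and Rxrg also passed as higher, Rxrg by 0.51 (adjusted p = 0.00108). Thrsp, a thyroid hormone target in lipid synthesis, fell by 0.24 in its brightest probe set (adjusted p = 0.0416), whereas its other probe set, 1422973_a_at, rose by 0.50 (adjusted p = 0.000199). The brightest probe set was itself called higher after quantile normalization (0.10, adjusted p = 0.0361).

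Genes of heat production without UCP1, through creatine, calcium or N-acyl amino acids, had 3 higher and 2 lower of 7 tested (median 0.02). Ckb, the creatine kinase of the creatine cycle, rose by 0.53, whereas Gatm, which makes the precursor of creatine, fell by 0.68 (adjusted p = 0.00387). Pm20d1, the secreted enzyme that forms N-acyl amino acids, rose by 0.69 (adjusted p = 0.0154), and Pln, an inhibitor of the calcium pump, fell by 0.60 (adjusted p = 0.0278). The calls of Pm20d1 and Pln were lost with the methods' t-test. The pump itself, Atp2a2, had a change of 0.02 (adjusted p = 0.716).

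**Figure D3:**
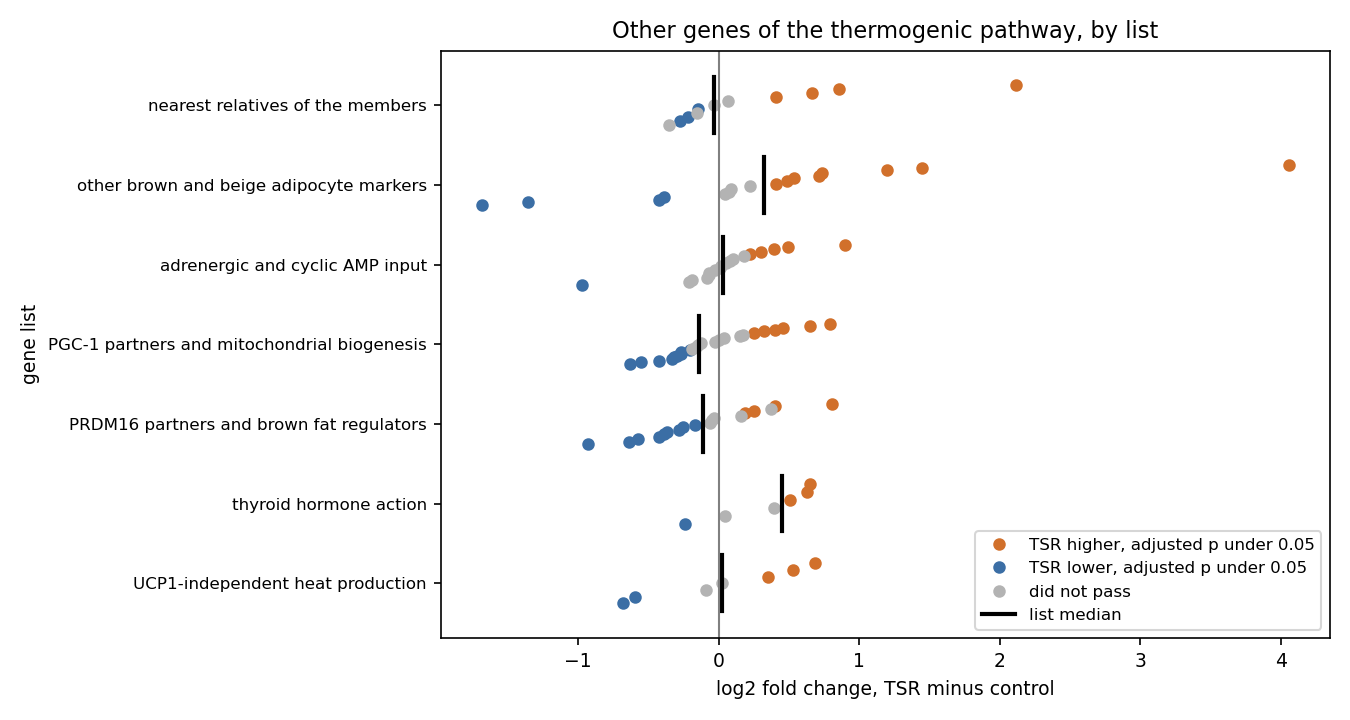
TSR minus control on the log2 scale for the tested genes of 7 pathway lists, 1 point per gene at its brightest probe set, coloured by call, with a black bar at each list's median. Genes above and below 0 appear in every list, and the medians run from -0.14 for the PGC-1 partners to 0.45 for thyroid hormone action.

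Markers of cell types moved between the same samples. White adipocyte markers (17 tested) had 8 higher and 5 lower with a median log2 change of 0.23, and Adipoq went from 18072 to 13080.2 (adjusted p = 0.01). After quantile normalization 10 of the 17 were called higher and 0 lower, and the Adipoq change of -0.46 was -0.09 and did not pass (adjusted p = 0.241). Their summed signal overlapped between the groups. Among 26 hepatocyte markers with a probe set, 23 had all TSR signals above all control signals, and Alb went from 129 to 3205 (log2 change 4.66, adjusted p = 1.21e-07). The summed signal of this list ran from 31482 to 36776 in control WAT and from 36953 to 41901 after TSR. Most of the control sum came from Cyp2e1, Hp and Pck1, the 3 markers called lower, so that the sum hides the rise of the others. Their means were 16621, 12250 and 4149 in control WAT and 12455, 9399 and 1975 after TSR. After quantile normalization Pck1 was still called lower, whereas Cyp2e1 and Hp did not pass (adjusted p = 0.355 and 0.119). Among 19 macrophage markers, 16 had all TSR signals below all control signals, and the sum went from between 24952 and 25941 to between 16284 and 16429. Among 18 skeletal muscle markers, 2 had all TSR signals above all control signals and 3 had them below. The former, Acta1 and Myl1, were the only calls among 5 tested, and they rose by 2.23 (399 ± 10.6 to 1871 ± 38.4) and 0.60. The latter, Myh1, Mylpf and Ryr1, were not tested, with means of 28.5, 44.0 and 46.2 in control WAT and 14.4, 32.6 and 14.7 after TSR. The sum of the list, most of it Acta1 and Myl1, went from between 2038 and 2129 to between 4022 and 4178. Ckm, a defining muscle gene, was below the filter with 22.2 ± 3.91 and 31.2 ± 13.1. Ucp3 and Ppargc1a are also expressed in muscle, Ppargc1a and Elovl2 in liver, and these are examples rather than a full list. The part of other cell types in the rises of the members, Elovl3 among them, and of Hspb7 and Slc27a2 was not tested. Of 10 epididymis markers 5 were measured, and none reached the filter. Among them 1 had all TSR signals above all control signals and 0 had them below. This was Adam7, near background in control WAT with 9.48 ± 6.11 and at 38.0 ± 7.56 after TSR, at least 1.7-fold higher.

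**Figure D4:**
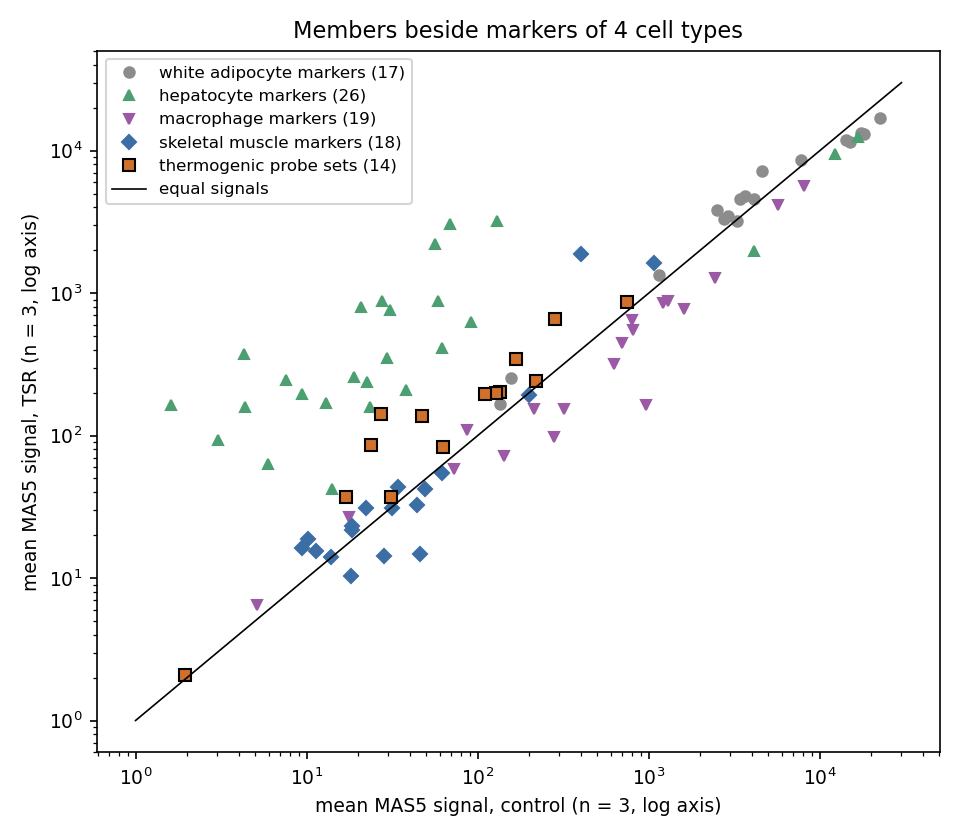
Mean signal in control WAT against mean signal after TSR (log axes) for white adipocyte, hepatocyte, macrophage and skeletal muscle markers and for the 14 thermogenic probe sets, with a line of equality. Hepatocyte markers lie mostly above the line and macrophage markers mostly below it, whereas the white adipocyte markers lie along it, and most thermogenic probe sets lie above it.

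The ratio of 5′ to 3′ signal, a sign of how complete the labelled RNA was, also differed between the groups for 3 of 5 control RNAs and overlapped for the other 2. For the beta-actin control probe sets the log2 difference was between -1.23 and -1.20 in control WAT and between -0.668 and -0.666 after TSR, for Gapdh it was between -0.599 and -0.476 and between 0.0732 and 0.173, and for pyruvate carboxylase between -5.29 and -5.07 and between -4.94 and -4.68. The groups overlapped for the transferrin receptor (-5.07 to -3.33 and -3.57 to -1.24) and for 18S RNA (-0.415 to -0.34 and -0.593 to -0.29), whose mean difference of -0.07 had the opposite sign. Its part in the changes of the thermogenic probe sets, several of which disagreed within a gene, was not tested.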

How the data were processed

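Affymetrix arrays measured the RNA of epididymal WAT collected at ZT18, with 3 control and 3 TSR arrays. The deposited values are MAS5 signal intensities on a linear scale, which the authors made with Affymetrix Expression Console (version not given in the sources used here) and scaled to one target per array. The labels state freezing in liquid nitrogen and Trizol extraction, the study's methods RNAlater and a lipid tissue kit. The authors' expression calls and raw scans were not used here. The number of arrays limits the precision.

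Of 22690 probe sets, 64 were control probe sets, 20380 had 1 gene symbol, 691 several and 1619 none in the platform annotation used here, and 0 symbols needed an update. Signals were taken to log2. After control probe sets, the dimmest 35% (mean log2 signal under 5.45) were removed. Two-sided comparisons of the 14707 kept probe sets used limma (version 3.58.1; R 4.3.3), with moderated variances that followed the mean signal, and Benjamini-Hochberg adjusted p-values with a threshold of 0.05. For single values an exact permutation test (two-sided) was used. A probe set was near background in a group where each of its signals was under the array's 25th percentile. A fold against such a group is a lower bound, the TSR mean log2 signal against these percentiles. Promoter windows came from RefSeq (GRCm38.p6), and 4 measured members had one that was printed. The sequences of Elovl3, Ppargc1b and Cidea were not used here.

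Named were every probe set of the members, from each list the brightest gene, up to 3 called genes with the largest change and genes with a direct role for a member, and for each member probe set with a 2-fold call the 3 genes of closest pattern. Named after their values were seen were Cebpa, Ebf2, Epsti1, Ppara, Elovl5, Hp, Pck1, Adam7, Myl1, Myh1, Mylpf, Ryr1, Ckb, Dio1, Elovl2, Slc27a2 and Rxra in the thyroid list. The members and lists were chosen with earlier results of these data known. Ucp2 and Prdm16 were not analysed here, and ratios of Ucp1 and Ucp3 to Ucp2 were not made.

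Alternatives were the methods' t-test on linear and log2 signals, scaling by quantiles or by the median, limma with no trend, a filter of 50% or none, raising dim signals to the 25th percentile, the 35th percentile as background, averaging a gene's probe sets, a replicate block, and omission of each array. The computation was tested on simulated data.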

Additional observations from a re-analysis of the deposited data

How the results depend on the processing

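Of the 11 thermogenic probe sets tested, the number called higher stayed between 7 and 9 in alternatives that tested all 11, with 7 under the methods' t-test and 8 without the intensity trend, after quantile normalization and after median centring. It was 8 of 14 with no filter and 6 of 7 with the lowest 50% left out. With 1 array left out it was 8 to 9, and 0 were called lower in each of these settings. The lost calls were those of Ppargc1b and, under the methods' t-test, Ppargc1a 1434099_at. Ppargc1b lost its call without control replicate 1 (adjusted p = 0.114), control replicate 3 (0.0682), TSR replicate 1 (0.0661), TSR replicate 2 (0.0996) or TSR replicate 3 (0.0824). It was also lost without the trend (0.0787) and with no filter (0.0635), besides the settings given above. In the settings that lost the call, the log2 change of Ppargc1b lay between 0.10 and 0.23. Without control replicate 2 the call was kept, with a change of 0.27 (limma adjusted p = 0.0102).

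Pathway genes called lower numbered 17 rather than 27 with probe sets averaged per gene, and 14 under the methods' t-test. Leaving out 1 array gave 28 to 32 pathway genes higher and 20 to 25 lower. The gain of Ppargc1a over Ppargc1b was 0.44 with probe sets averaged per gene, and 0.80 to 0.86 with 1 array left out. With the 35th percentile as the limit, 3 member probe sets were near background in both groups and 5 in control WAT, rather than 1 and 1, and the latter include Elovl3 and all 3 Dio2 probe sets. Of 31 further genes named with a call and followed through the alternatives, 24 kept it in every alternative in which they were tested. The other 7 were Cidec, Bmp7, Thrsp, Pm20d1, Pln, Ebf2 and Adipoq, which lost its call under the methods' t-test too (0.103 on linear and 0.0933 on log2 signals). Not every named gene was among the 31, and Cyp2e1, Hp, Pck1, Epsti1, Ppara and Elovl5 were left out. Of these, Cyp2e1 and Hp lost their calls after quantile normalization. Bmp7 lost its call without control replicate 2 (0.0708) or control replicate 3 (0.0554), Cidec without TSR replicate 1 (0.0512) and Pm20d1 without TSR replicate 3 (0.0544). Thrsp lost it without any of 4 arrays (0.093 to 0.133) and Pln without any of 4 (0.075 to 0.0926). Median centring lowered every log2 change by 0.106. Quantile normalization lowered the median change by 0.0495 and moved single probe sets by other amounts, bright ones upward among them. Of the adrenergic and cyclic AMP genes 3 were then called lower and 5 under median centring, rather than 1, and of the nearest relatives 1 and 4 rather than 3.

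Same-numbered control and TSR samples did not all deviate together by the limit of 0.1 (r of 0.015, 0.191 and 0.175), and control replicates 2 and 3 correlated best with their own number but control replicate 1 with TSR replicate 3 (0.058), so that the numbers were not taken as pairs. With the replicate number as a block, 9 member probe sets were higher and 0 lower, 33 pathway genes were higher and 28 lower, and 7434 of all probe sets were called rather than 6850. With 3 arrays per group the exact test cannot go below 0.1, and Ucp1, at or below the background, allows no statement on a small change.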
